A study of Mus musculus with 47 samples.

Results

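Keratins are the intermediate filament proteins of epithelial cells, and their transcripts were followed here across all sorted medullary thymic epithelial cell (mTEC) libraries of the study. Members were taken by name, as every protein-coding gene whose GRCm38 symbol is Krt followed by a number and at most 1 letter, and keratin-associated proteins were left out. This gave 53 keratin genes, 28 of type I and 25 of type II, among the 53402 genes of the adult count table and the 55471 genes of the neonatal count table. All 53 were listed in both tables. A filter on low counts left 45 keratins among the 19310 genes tested in adults and 44 among the 20196 genes tested in neonates. Krt27, Krt28, Krt31, Krt32, Krt34, Krt39, Krt40 and Krt88 were too low for a test in either table, and Krt35 was too low in the neonatal table alone.

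The thymus of C57BL/6 mice was the source, and mTECs were gated as EpCAM-positive cells without CD45 or Ly51 and divided into mTEChi and mTEClo by high or low surface MHC class II. The adult groups, at 4 to 6 weeks of age, were mTEChi of WT (n = 7) and of AireKO (n = 4) and mTEClo of WT (n = 8) and of AireKO (n = 4). AireKO mice lack Aire, the transcriptional regulator that mTECs use to express genes of other tissues, in all cells. The neonatal groups, at 1 to 6 days of age, comprised 5 Ctrl, 3 AireKO, 3 EEDcKO and 3 AireEEDdKO libraries of mTEChi, and 3 Ctrl, 4 EEDcKO and 3 AireEEDdKO libraries of mTEClo. EEDcKO mice lose Eed, a core subunit of the histone-methylating complex PRC2, through Foxn1-Cre, which acts in thymic epithelium, and AireEEDdKO mice lack both genes. Some neonatal libraries were pools of animals of both sexes. Ages were not balanced between the neonatal groups. Neonatal AireKO and AireEEDdKO libraries were 4 to 6 days old and Ctrl mTEClo libraries 1 to 3 days. The other neonatal groups spanned 1 to 6 days. The labels do not say that every library came from a separate animal, so p-values measure the spread between these libraries.

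Total counts were 1602125 to 3938588 per adult library and 1578579 to 4817418 per neonatal library, and in each table the libraries fell into a class under 2000000 counts (6 adult, 8 neonatal) and a deeper class. Levels below are CPM, that is counts per 1000000 counts of the scaled library. Aire was at 818 ± 56.0 CPM (SD, n = 7) in adult WT mTEChi and 29.2 ± 11.6 (n = 4) in AireKO mTEChi. Eed was at 29.1 CPM in neonatal Ctrl mTEChi and 14.8 in EEDcKO mTEChi (means of 5 and 3 libraries), so a part of the Eed reads remained. All adult AireKO libraries were male, while WT libraries were of both sexes, and 6 adult AireKO libraries (all 4 of mTEChi, 2 of mTEClo) held 0 mitochondrial counts where all other libraries held 6178 to 10410. In adult mTEChi, AireKO and mitochondrial counts of 0 cannot be told apart.

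A keratin filament is built from obligate pairs of a type I (acidic) and a type II (basic to neutral) chain. Which pair a cell makes depends on its tissue and its state. Krt8 and Krt18 form the pair of simple epithelia, Krt5 and Krt14 that of the basal layer of stratified epithelia, Krt1 and Krt10 that of the suprabasal layers of the epidermis, and Krt4 and Krt13 that of the oesophagus and other moist mucosae. Other keratins belong to the cornea, the inner root sheath of the hair follicle, and the hard material of hair and nail. mTECs are themselves epithelial cells with keratins of their own, and they also display transcripts of many other tissues to developing thymocytes. The 53 genes were therefore grouped by the tissue in which each is best known, and 10 genes were left without a class.

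The genes lie in tight clusters, type I on chromosome 11 (27 genes) and type II on chromosome 15 (25 genes), with the type I gene Krt18 beside Krt8 at the end of the chromosome 15 cluster. Of the 53, 36 had an entry in RefSeq's promoter table (GRCm38.p6). The 5 printed here run from 250 bases before the transcription start to 50 bases after it, 5′ to 3′ on the strand of the gene. They stand for the epidermal pair (Krt10), the mucosal pair (Krt13), the hair follicle companion layer (Krt75), the basal layer (Krt5) and simple epithelium (Krt18), and capitals mark an ATAAA close to the start, the core of a TATA box.
Krt10, chr11:99389315-99389614, minus strand: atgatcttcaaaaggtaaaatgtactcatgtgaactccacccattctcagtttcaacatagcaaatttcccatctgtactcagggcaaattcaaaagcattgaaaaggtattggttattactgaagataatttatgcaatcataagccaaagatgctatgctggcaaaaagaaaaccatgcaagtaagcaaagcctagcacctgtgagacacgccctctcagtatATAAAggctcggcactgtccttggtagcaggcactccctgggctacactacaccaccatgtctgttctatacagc
Krt13, chr11:100121517-100121816, minus strand: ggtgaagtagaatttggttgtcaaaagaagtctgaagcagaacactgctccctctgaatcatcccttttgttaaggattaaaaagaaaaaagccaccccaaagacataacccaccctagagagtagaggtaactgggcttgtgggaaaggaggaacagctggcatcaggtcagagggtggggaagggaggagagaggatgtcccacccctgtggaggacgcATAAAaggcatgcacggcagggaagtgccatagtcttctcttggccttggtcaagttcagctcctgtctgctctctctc
Krt75, chr15:101573855-101574154, minus strand: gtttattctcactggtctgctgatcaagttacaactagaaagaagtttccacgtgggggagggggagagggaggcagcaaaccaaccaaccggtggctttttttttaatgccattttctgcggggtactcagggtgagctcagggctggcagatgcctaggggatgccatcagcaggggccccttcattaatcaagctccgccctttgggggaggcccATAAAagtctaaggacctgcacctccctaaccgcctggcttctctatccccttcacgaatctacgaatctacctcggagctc
Krt5, chr15:101712856-101713155, minus strand: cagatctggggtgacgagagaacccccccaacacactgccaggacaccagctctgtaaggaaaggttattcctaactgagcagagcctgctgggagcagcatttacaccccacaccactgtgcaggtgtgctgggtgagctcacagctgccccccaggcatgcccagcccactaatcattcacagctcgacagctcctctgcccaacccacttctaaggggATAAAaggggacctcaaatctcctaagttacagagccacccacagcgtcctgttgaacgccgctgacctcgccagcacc
Krt18, chr15:102027966-102028265, plus strand: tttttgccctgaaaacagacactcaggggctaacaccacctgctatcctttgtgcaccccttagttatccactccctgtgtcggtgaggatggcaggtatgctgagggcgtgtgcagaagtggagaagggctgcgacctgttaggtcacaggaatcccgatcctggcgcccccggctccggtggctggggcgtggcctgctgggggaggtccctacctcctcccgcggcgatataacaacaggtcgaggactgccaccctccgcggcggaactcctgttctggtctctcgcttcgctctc

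The first 4 of these promoters had ATAAA at 25 (Krt10), 29 (Krt13), 32 (Krt75) and 29 (Krt5) bases before the start, and Krt18 had none in that window. Over the 36 keratin promoters, ATAAA on the gene's strand with its first base 45 to 20 bases before the start stood in 20 (55.6%), compared with 4.8% of all 32841 promoters in the table. The hexamer TATAAA, searched on both strands over the 300 bases and overlapping with the former, was in 52.8% of keratin promoters and 13.6% of all. GGGCGG, the core of the GC box, searched on both strands, was in 5.6% and 35.7%. TGANTCA, the AP-1 site, was in 2.8% and 7.8%, and GCCNNNGGC, the AP-2 site, in 19.4% and 16.6%, both searched on both strands. The median ratio of observed to expected CpG was 0.27 in keratin promoters and 0.384 in all. Of the keratins tested in adult mTEChi that had a promoter in the table, ATAAA stood near the start in 12 of the 20 that fell in AireKO and in 3 of the 9 that were not called. A match depends on where the start is placed. Among the 9, the start lay 1518 (Krt14), 1360 (Krt7), 140 (Krt8) and 80 (Krt42) bases from that in GENCODE, and none of these had ATAAA in the window. Among the 20 the distance was at most 60 bases (Krt72). These 2 shares were not compared by a test. All of these counts are letter matches within fixed windows.

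mTECs of every group held the same few keratins at the top. Compared per kilobase of exon, so that genes can be ranked against each other, Krt17, Krt18, Krt8, Krt5 and Krt14 were among the 6 highest keratins in all 11 groups. In adult WT mTEChi, Krt17 stood at 222 CPM per kilobase, Krt18 at 202, Krt8 at 104 and Krt5 at 84.3, followed by the epidermal keratin Krt77 at 61.0 and by Krt14 at 58.2. In adult WT mTEClo the order was Krt17 at 313, Krt5 at 265, Krt18 at 233, Krt14 at 194 and Krt8 at 95.7 CPM per kilobase. All 53 keratins together made up 2485 ± 134.5 CPM (SD, n = 7) in adult WT mTEChi and 1691 ± 96.9 CPM (n = 4) in AireKO mTEChi. The number of keratins with at least 1 count was 52 to 53 per library in WT mTEChi and 37 to 40 in AireKO mTEChi.

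**Figure D1:**
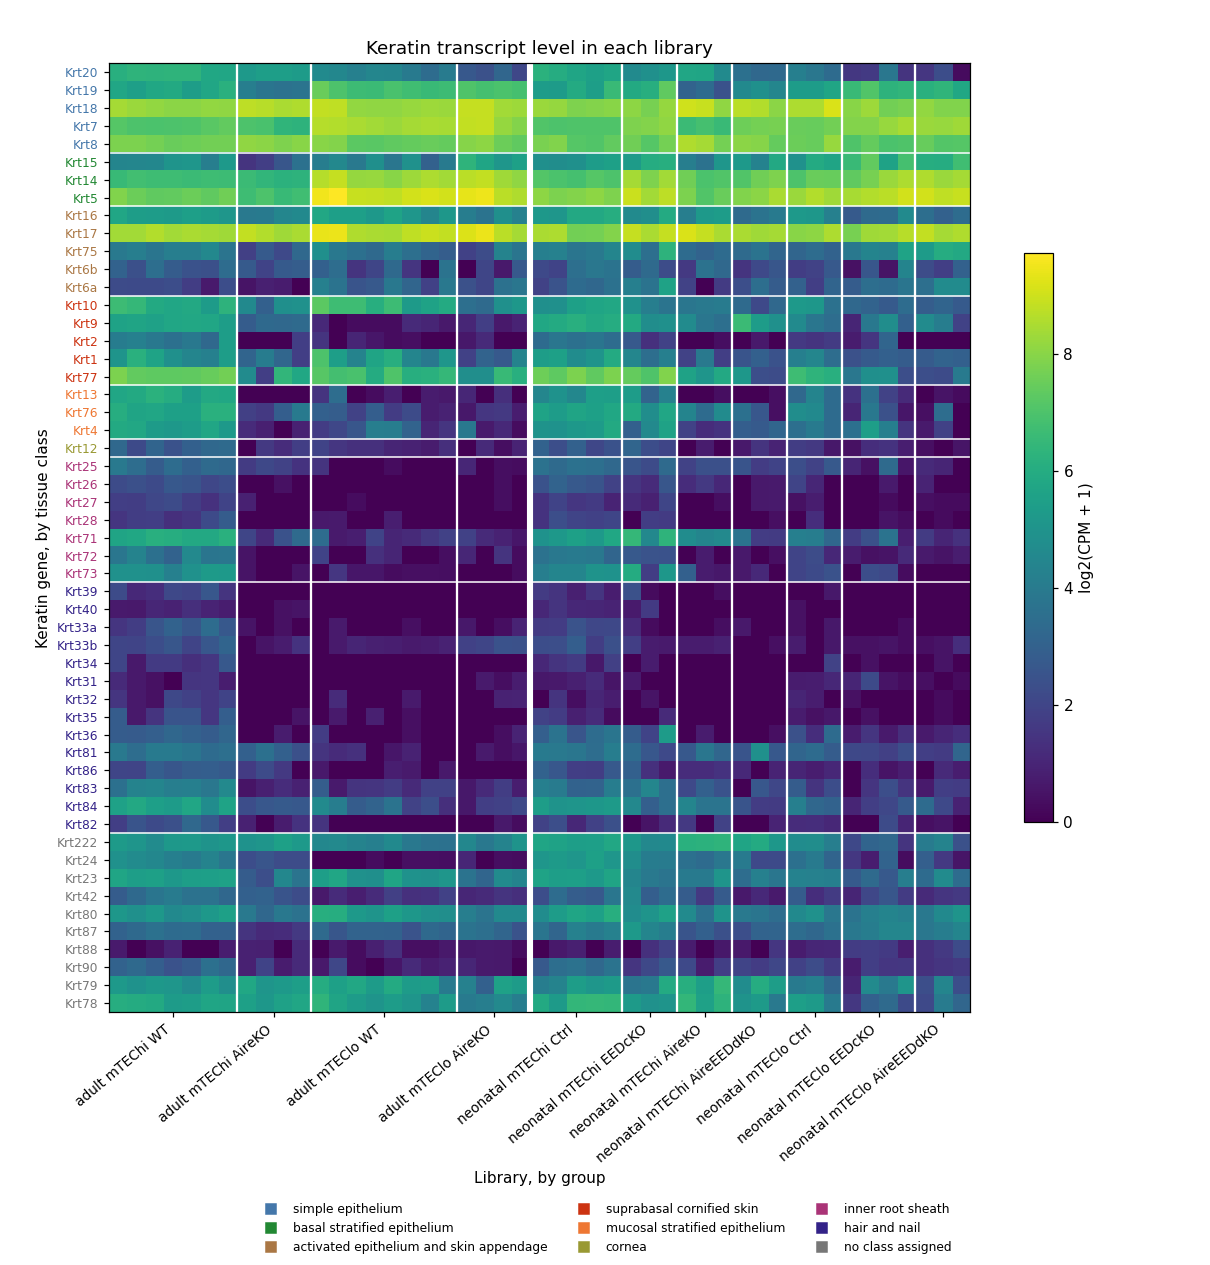
Level of each of the 53 keratins (one line each, coloured and grouped by tissue class) in each of the 47 libraries (columns, in 11 groups), as log2(CPM + 1) in colour. Krt8, Krt18, Krt17, Krt5 and Krt14 are bright in all libraries, and most inner root sheath, hair and mucosal keratins are brighter in adult WT mTEChi than in AireKO mTEChi.

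The first question was which keratins depend on Aire in adult mTEChi. Of the 45 tested, 32 fell in AireKO and 0 rose (a gene was called where it moved 2-fold or more and edgeR's quasi-likelihood test, adjusted over all genes, gave p below 0.05). Over all genes, 23.4% were called, 5.63% higher and 17.8% lower. At an unadjusted p under 0.05 and any size of change 2 were higher (Krt8 and Krt18) and 38 lower, and DESeq2 called 0 higher and 33 lower. The median log2 fold change was -2.08 over the tested keratins and -0.015 over all tested genes. Both types took part, with 15 of 21 type I and 17 of 24 type II genes called lower. In 30 of the 32 (93.8%), the highest AireKO library lay below the lowest WT library, as it did in 81.1% of all genes called lower (14.4% of all tested genes).

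Of the keratins of moist mucosae 3 of 3 were called lower, among them Krt13, which had the most negative log2 fold change of the 45 (-10.33 ± 0.93, a fitted value that depends on the prior count). Krt13 was at 40.2, 57.5 and 73.2 CPM in the lowest, median and highest WT mTEChi library and at 0 in all 4 AireKO libraries. Against a floor of 3 counts over the AireKO group it was at least 192-fold lower. Its type II partner Krt4 was at 35.0, 40.2 and 59.5 CPM in WT and at 1.32, 0.818, 0 and 0.835 in AireKO. No AireKO library came near the lowest WT library for either gene. The log2 fold change of Krt4 was -5.93 ± 0.79 (SE; adjusted p by edgeR = 4.41e-07). Krt76, a keratin of the hard palate, was at 44.7, 53.6 and 72.1 CPM in WT and at 2.63, 2.05, 6.50 and 14.6 in AireKO, a log2 fold change of -3.14 ± 0.36.

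Inner root sheath keratins, which line the growing hair, were called lower in 5 of 5 tested. Krt73 was at 18.1, 29.4 and 38.4 CPM in WT mTEChi and at 0.439, 0, 0 and 0.418 in AireKO. With 2 counts in all of AireKO, the ratio was 151, and counting error in that group alone allows 41.8 to 1250 (exact Poisson, 95%). Krt72 was at 7.25, 13.0 and 22.8 CPM in WT and had 1 count in AireKO. Krt71, another type II keratin of the sheath, was still measured at 3.07, 1.23, 4.45 and 9.19 CPM in AireKO against 50.8, 58.4 and 70.7 in WT. Its log2 fold change was -3.76 ± 0.35 (adjusted p by edgeR = 1.02e-09). Of the type I members, Krt26 had 1 count in AireKO, a ratio of 42.0 (7.55 to 1660), and Krt25 changed by -1.86 ± 0.38 on the log2 scale.

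Of the hair and nail keratins 8 of 9 tested were called lower. Krt36 was at 6.00, 6.78 and 8.46 CPM in WT and had 2 counts in AireKO, a ratio of 35.8 (9.92 to 296). Krt84, a keratin also of the tongue's filiform papillae, was at 25.8, 46.5 and 58.2 CPM in WT and at 3.95, 5.32, 5.82 and 5.43 in AireKO, with a log2 fold change of -3.11 ± 0.43. The WT and AireKO libraries did not overlap for either gene. Krt83 changed by -4.23 ± 0.40 on the log2 scale. Krt35 had 1 count in AireKO, a ratio of 38.8 (6.96 to 1530), and Krt33a had 2 counts, a ratio of 29.1 (8.06 to 240). Several of these genes are near copies of each other, and 36.9 to 43.3% of the 50-base words of Krt86, Krt81 and Krt87 also occur in other genes, so their counts are uncertain.

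The epidermal keratins were called lower in 5 of 5. Krt10 was at 39.4, 58.6 and 99.7 CPM in WT mTEChi and at 23.7, 6.96, 28.1 and 29.2 in AireKO, a log2 fold change of -1.59 ± 0.37 (adjusted p by edgeR = 0.00071). Its partner Krt1 was at 18.1, 32.2 and 72.0 CPM in WT and at 7.90, 16.0, 8.22 and 2.51 in AireKO, a log2 fold change of -2.06 ± 0.58. All AireKO libraries were below all WT libraries for this pair too, but the distance was small beside that of the mucosal pair. Krt2, of the upper epidermis, and Krt9, of palm and sole, changed by -4.77 ± 0.67 and -2.58 ± 0.19. For Krt9 the AireKO libraries held 6.14 to 9.19 CPM and the WT libraries 42.1 to 56.1. Krt12, the keratin of the corneal epithelium, changed by -2.22 ± 0.42, and 42.0% of its 50-base words occur in other genes, chiefly A830036E02Rik, an antisense gene that overlaps it.

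**Figure D2:**
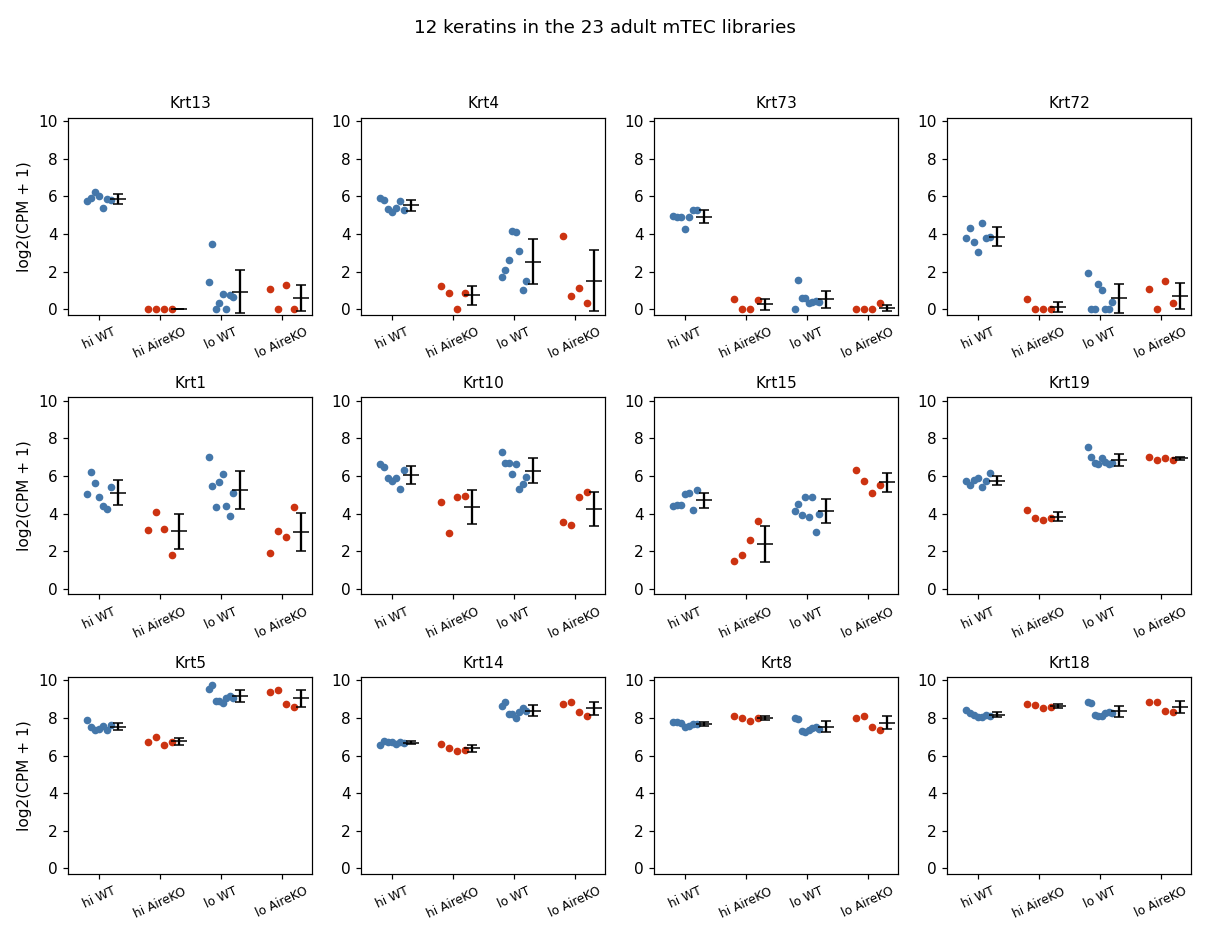
Level of 12 keratins in the 23 adult libraries as log2(CPM + 1), with 1 dot for each library (WT blue, AireKO red) and a bar for mean ± SD. Krt13, Krt4, Krt73 and Krt72 drop to the floor of the scale in AireKO mTEChi, Krt15 and Krt19 drop in mTEChi alone, Krt1 and Krt10 are lower in AireKO of both fractions, and Krt8 and Krt18 are high in all groups.

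The keratins that stood high in every group, Krt17, Krt18, Krt8, Krt5 and Krt14, were not among those called. Krt77, which ranked above Krt14 in adult WT mTEChi, was called lower with the other epidermal keratins. Of the simple epithelial keratins 1 of 5 fell, and of the basal keratins 1 of 3. Krt8 was at 182, 202 and 223 CPM in WT mTEChi and at 276, 260, 229 and 255 in AireKO. Krt18 was at 263, 283 and 344 CPM in WT and at 432, 411, 363 and 383 in AireKO. All AireKO libraries were thus above all WT libraries for both genes, with log2 fold changes of 0.32 ± 0.13 (adjusted p by edgeR = 0.0404) and 0.45 ± 0.13 (adjusted p by edgeR = 0.00528), which are under 2-fold. Krt17, of activated epithelium and skin appendages, differed by 0.15 ± 0.17 (adjusted p by edgeR = 0.488). Krt14 differed by -0.30 ± 0.14 (adjusted p by edgeR = 0.0792), and its partner Krt5 was lower by an amount under 2-fold, -0.77 ± 0.18 (adjusted p by edgeR = 0.000562).

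The called members of these classes were Krt19 and Krt15, type I keratins found in progenitor-rich epithelia. Krt19, the smallest keratin and one that simple and stratified epithelia both use, was at 42.0, 53.3 and 71.1 CPM in WT mTEChi and at 17.1, 12.7, 11.6 and 12.5 in AireKO, a log2 fold change of -2.01 ± 0.19. Krt15 was at 17.1, 21.4 and 36.8 CPM in WT and at 1.76, 2.46, 5.14 and 11.3 in AireKO, a log2 fold change of -2.35 ± 0.41. Neither gene overlapped between the groups. Among the activated keratins, Krt6a, Krt75 and Krt16 fell as well, but 57.2% of the 50-base words of Krt6a are shared with other genes, chiefly Krt6b, so reads of this pair may have been lost or exchanged.

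In the same comparison, other genes of the epithelial skeleton were counted from lists. Of 16 desmosome genes 1 fell, of 12 hemidesmosome and plakin genes edgeR called 0 (4 higher and 3 lower at an unadjusted p under 0.05), and of 20 tested transcription factors of keratinocytes 1 fell (Klf5, log2 fold change -1.06 ± 0.21). Of 17 other intermediate filament genes 1 rose and 8 fell, among them the neuronal filaments Nefl (0 counts in AireKO) and Ina (0 counts in AireKO) and the glial filament Gfap (-3.47 ± 0.43). Of 19 genes of the cornified envelope 1 rose and 6 fell, led by Klk5 (-4.28 ± 0.45), Cdsn and Casp14. Markers of other cells also differed between these groups. The summed level of 4 cTEC markers was 385.2 to 500.5 CPM in WT mTEChi and 576.1 to 691.3 in AireKO (0 of 4 called by edgeR, 3 higher at an unadjusted p under 0.05), and that of 6 thymocyte markers 79.3 to 110.9 and 43.1 to 56.9 (4 of 5 tested called lower). That of 5 mesenchymal markers was 184.6 to 351.7 CPM in WT and 186.6 to 201.3 in AireKO (1 of 5 called higher, 3 lower), that of 3 endothelial markers 22.96 to 37.2 and 19.2 to 25.4 (1 of 2 tested called lower), and that of 4 myeloid markers 236.1 to 296 and 353.6 to 406.8 (1 called higher, 1 lower). Their part in the keratin results was not tested, and in bulk RNA fewer cells of a type and less RNA per cell cannot be told apart.

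**Figure D3:**
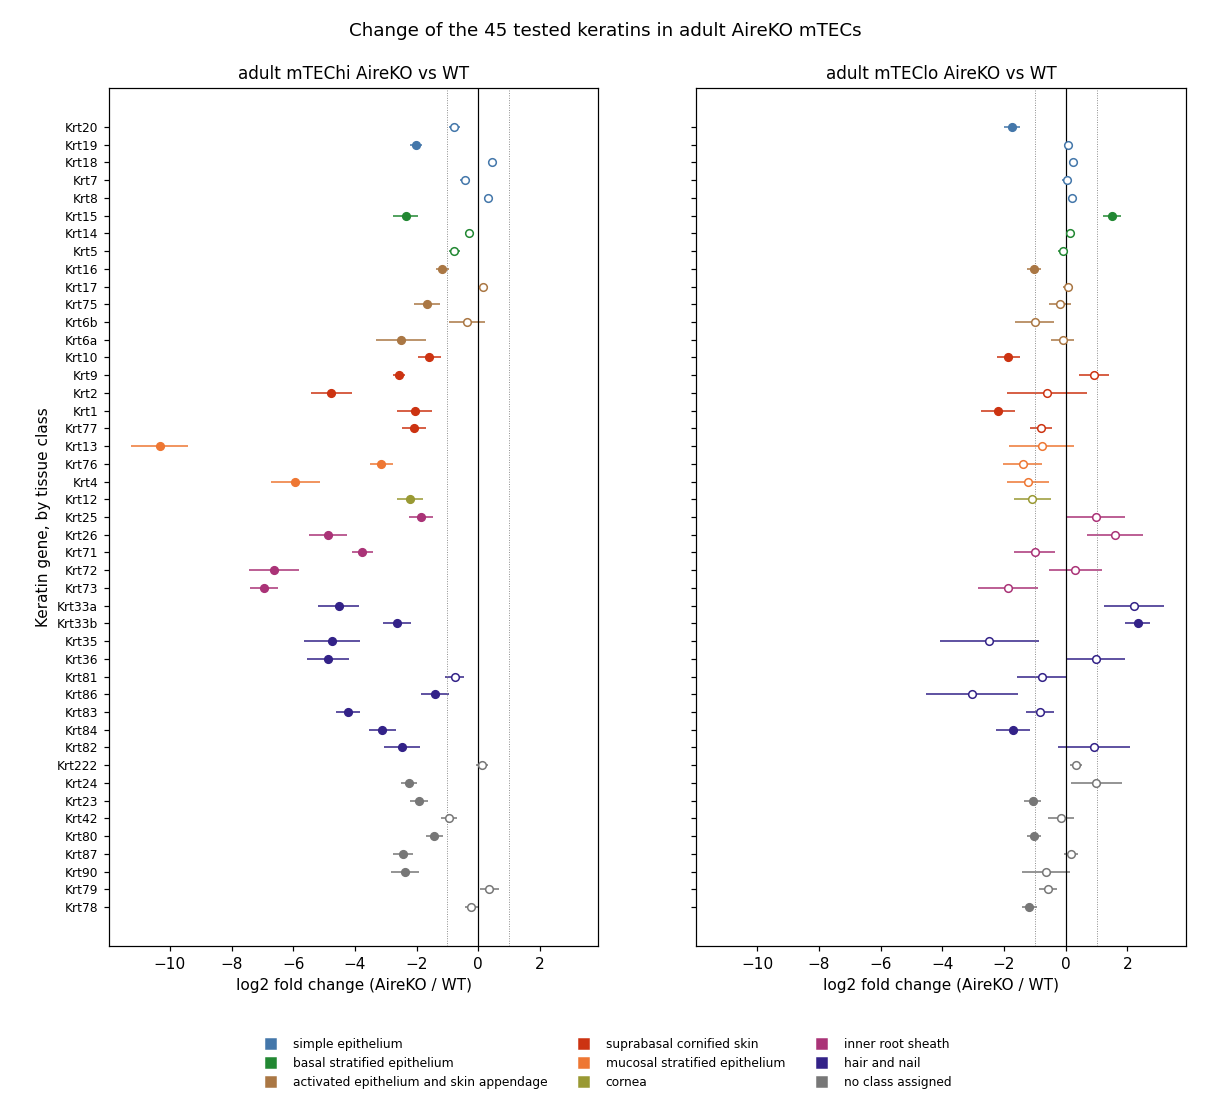
Log2 fold change (AireKO over WT, ± SE) of the 45 tested keratins in adult mTEChi (left) and mTEClo (right), coloured by tissue class, with filled points for called genes and dotted lines at 2-fold. In mTEChi 32 points are filled and all lie left of 0, and in mTEClo 10 are filled, 8 left and 2 right of 0.

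The same contrast in adult mTEClo, where Aire is low (69.2 CPM in WT), gave 10 called keratins, 8 lower and 2 higher. Over all genes 8.3% were called, 3.88% lower and 4.42% higher. The median log2 fold change over tested keratins was -0.58, or -0.18 with the 2 genes at 0 counts in AireKO set at their bound. The epidermal pair fell. Krt10 was at 38.4, 84.5 and 153.4 CPM in the lowest, median and highest WT mTEClo library and at 10.8, 9.39, 28.3 and 35.0 in AireKO, a log2 fold change of -1.86 ± 0.36 (adjusted p by edgeR = 0.000381). Krt1 was at 13.8, 38.6 and 126.9 CPM in WT and at 2.71, 7.51, 5.66 and 19.4 in AireKO, and its groups overlapped at 1 AireKO library. Its log2 fold change was -2.19 ± 0.54 (adjusted p by edgeR = 0.0038).

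The other keratins that fell in AireKO mTEClo were Krt20 (-1.74 ± 0.25), an intestinal and urothelial keratin, Krt84, Krt78, Krt23, Krt80 and Krt16, with log2 fold changes of -1.71 to -1.03. Those that rose were Krt15 and Krt33b. Krt15 was at 7.05, 15.8 and 29.0 CPM in WT mTEClo and at 80.1, 52.0, 33.7 and 44.7 in AireKO, a log2 fold change of 1.51 ± 0.29 (adjusted p by edgeR = 0.000279). Krt33b was at 0, 0.718 and 1.02 CPM in WT and at 2.71, 3.13, 4.47 and 4.37 in AireKO. Both genes were higher in all AireKO libraries than in any WT library. AireKO mice were 5 to 6 weeks old and WT mice 4 to 5, and with age in weeks as a term the count was 3, namely Krt20, Krt23 and Krt15. Among male libraries alone it was 5, and Krt10, Krt1, Krt20, Krt15 and Krt33b were those 5. Libraries under 2000000 counts gave 1 higher and 15 lower, and deeper libraries 4 higher and 3 lower. The former were WT replicates 1 and 2 (female, 4 weeks) and AireKO replicates 1 and 2 (male, 5 weeks). Genotype, sex and age cannot be told apart there. The deeper AireKO libraries were 6 weeks old and held 0 mitochondrial counts, so depth did not vary alone. The summed cTEC markers were at 173.6 to 220.5 CPM in WT mTEClo and 277.7 to 394.9 in AireKO (2 of 4 called higher), and the myeloid markers at 38.0 to 67.4 and 106.5 to 141.8 (2 of 4 called higher, 1 lower), and their part was not tested.

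Whether the response to AireKO differed between the fractions was tested by an interaction term. It was called for 14 keratins, all with a more negative change in mTEChi, compared with 13.7% of all genes (11% more negative, 2.7% less). Krt13, Krt72, Krt33a, Krt26, Krt36, Krt33b, Krt4, Krt15, Krt9 and Krt83 had the largest differences, followed by Krt24, Krt71, Krt87 and Krt19. For Krt15 the directions were opposite, with a fall in mTEChi and a rise in mTEClo, and a difference of -3.85 ± 0.50 (adjusted p by edgeR = 1.59e-06). For Krt19 the mTEClo values, 97.0 to 183 CPM in WT and 116 to 131 in AireKO, differed by 0.07 ± 0.14, and the difference between fractions was -2.08 ± 0.23. For Krt1 and Krt10 the difference between fractions was 0.13 ± 0.82 and 0.26 ± 0.51, and neither passed the test.

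Adult mTEChi and mTEClo of WT differed in 29 of 45 keratins, with 24 higher and 5 lower in mTEChi. Over all genes 36.1% were called, 23.7% higher and 12.4% lower. The keratins lower in mTEChi were the basal pair and simple or activated keratins, Krt14 (-1.73 ± 0.11), Krt5 (-1.65 ± 0.14), Krt6a, Krt7 (-1.35 ± 0.12) and Krt19 (-1.10 ± 0.12). Krt5 was at 161, 185 and 235 CPM in the lowest, median and highest mTEChi library and at 446, 540 and 850 in mTEClo. Krt14 was at 93.6, 103 and 110 CPM and at 255, 323 and 464. The fractions did not overlap for either gene. The 24 higher in mTEChi were led by Krt24 (6.57 ± 0.34), Krt26, Krt9 (6.34 ± 0.22), Krt73 and Krt13 (5.60 ± 0.41). Krt26 had 0 counts in the 8 WT mTEClo libraries and was at least 34.3-fold higher in mTEChi. Krt8, Krt18, Krt1 and Krt10 were not called. Markers of other cells were also higher in WT mTEChi than in mTEClo, with 4 of 4 myeloid, 4 of 5 tested thymocyte, 2 of 2 tested endothelial and 3 of 5 mesenchymal genes called higher. The summed myeloid markers were at 236.1 to 296 CPM in mTEChi and 38.0 to 67.4 in mTEClo, and the thymocyte markers at 79.3 to 110.9 and 27.9 to 40.7. Their part in these differences was not tested.

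In AireKO the fractions differed in 18 keratins, with 10 higher and 8 lower in mTEChi, compared with 35.2% of all genes (18.5% higher, 16.7% lower). Libraries with the same replicate number deviated together, but replicate 1 of mTEChi matched replicate 2 of mTEClo best, and replicate 3 matched replicate 4. Replicates 1 and 2 were 5 weeks old and replicates 3 and 4 were 6 weeks old. A shared animal and a shared age thus cannot be told apart. With the replicate as a block, fitted to these groups alone, the count was 10 (4 higher, 6 lower). It was also 10 in those groups alone without the block, and the other 8 genes were then under the filter on low counts and not tested. Krt5, Krt14, Krt7, Krt19 and Krt6a were lower in AireKO mTEChi than in AireKO mTEClo, as were Krt15 (-3.31 ± 0.42), Krt33b and Krt87. Krt13, at 5.60 in WT, was at -3.94 ± 2.38 in AireKO and not called, and both AireKO fractions were near 0.

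Neonatal mTEChi gave a separate set of libraries for the loss of Aire. In AireKO against Ctrl 21 of 44 tested keratins fell and 0 rose (edgeR; DESeq2 gave the same counts, and 3 were higher at an unadjusted p under 0.05), where 16.4% of all genes were called, 3.56% higher and 12.8% lower. The median log2 fold change over tested keratins was -1.37. Krt13 was at 21.4, 30.0, 22.0, 44.6 and 42.9 CPM in Ctrl and at 0, 0 and 0.283 in AireKO. Krt4 was at 30.9, 30.0, 35.2, 39.1 and 58.6 CPM in Ctrl and at 2.74, 1.38 and 1.70 in AireKO. For both genes of the mucosal pair every AireKO library lay below every Ctrl library. Krt13 had 1 count in AireKO, a ratio of 222 (39.8 to 8750), and Krt4 had a log2 fold change of -4.36 ± 0.85. Of the mesenchymal markers 3 of 5 were called lower and 1 higher (Pdgfra had 0 counts in AireKO). Their summed level was 232.6 to 307.2 CPM in Ctrl and 217.5 to 304.4 in AireKO. Of the myeloid markers 2 of 4 were called lower, with sums of 244.7 to 265.4 and 249.7 to 390.5. Of the thymocyte markers 1 of 6 was called lower (91.04 to 108.6 and 54.12 to 88.15), and of the endothelial markers 1 of 3 (21.95 to 42.63 and 15.84 to 21.92). The cTEC sums were 358.7 to 725.7 and 457.7 to 671.4 (0 of 4 called by edgeR, 1 higher and 1 lower at an unadjusted p under 0.05). The part of these markers was not tested.

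By tissue, the calls in neonatal AireKO mTEChi were 5 of 5 epidermal, 2 of 3 mucosal, 2 of 5 inner root sheath and 4 of 8 hair and nail keratins, and Krt12 of the cornea. Krt76, the mucosal keratin that was not called, was at 40.4 to 54.8 CPM in Ctrl and at 19.9, 9.64 and 24.6 in AireKO, so all AireKO libraries were below all Ctrl libraries. Krt10 was at 28.1, 28.9, 44.8, 51.7 and 55.7 CPM in Ctrl and at 13.0, 14.5 and 15.5 in AireKO (-1.55 ± 0.35). Krt19 was at 41.1, 39.9, 61.1, 43.0 and 97.0 CPM in Ctrl and at 7.54, 9.64 and 4.52 in AireKO (-3.11 ± 0.43, adjusted p by edgeR = 2.36e-05). In both genes the AireKO libraries lay below every Ctrl library. Krt8, Krt18 and Krt17 were higher by an amount under 2-fold, with log2 fold changes of 0.77 ± 0.22, 0.67 ± 0.20 and 0.76 ± 0.21 (adjusted p by edgeR = 0.0103, 0.0145 and 0.00905). Of 22 tested keratinocyte transcription factors 2 fell, Hoxc13 of hair (-3.77 ± 0.86) and Klf5 (-1.42 ± 0.22).

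With the loss of Eed, keratins were called lower more often than all genes were, and called higher no more often. In neonatal mTEChi of EEDcKO 13 keratins were called, 3 higher (6.82% of those tested) and 10 lower (22.7%). Over all genes 13.9% were called, 8.48% higher and 5.4% lower. The basal keratin Krt14 rose. It was at 140, 126, 117, 143 and 127 CPM in Ctrl and at 338, 228 and 337 in EEDcKO, a log2 fold change of 1.20 ± 0.21 (adjusted p by edgeR = 0.000224). All 3 EEDcKO libraries were above every Ctrl library. Its partner Krt5 was at 226 to 271 CPM in Ctrl and at 499, 337 and 431 in EEDcKO, also without overlap, and its change of 0.77 ± 0.16 was under 2-fold. Krt7 was at 129 to 137 CPM in Ctrl and at 232, 243 and 275 in EEDcKO, a change of 0.92 ± 0.11. Krt6a (1.72 ± 0.44) and Krt75 (1.19 ± 0.42), keratins of hair follicle and activated epithelium, were the other genes that rose. Krt75 was at 25.4, 10.7 and 77.4 CPM in EEDcKO and 12.9 to 20.6 in Ctrl, so its groups overlapped.

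The keratins that fell in EEDcKO mTEChi were epidermal (Krt1, Krt2 and Krt10), of hair and nail (Krt33a, Krt33b and Krt84), of the inner root sheath (Krt72) and without a class (Krt23, Krt78 and Krt90). Krt1 was at 25.6 to 61.1 CPM in Ctrl and at 21.1, 10.5 and 17.6 in EEDcKO (-1.38 ± 0.36). Krt10 was at 28.1 to 55.7 CPM in Ctrl and at 29.1, 16.8 and 12.3 in EEDcKO (-1.19 ± 0.33), with 1 EEDcKO library inside the Ctrl range. The mucosal keratins did not pass the test. Krt13 was at 40.3, 7.66 and 18.6 CPM in EEDcKO and Krt4 at 6.81, 22.8 and 47.2, a wide spread around the Ctrl values given above. The count of calls rested on single libraries, with 7 keratins without EEDcKO replicate 3 and 8 without EEDcKO replicate 2.

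**Figure D4:**
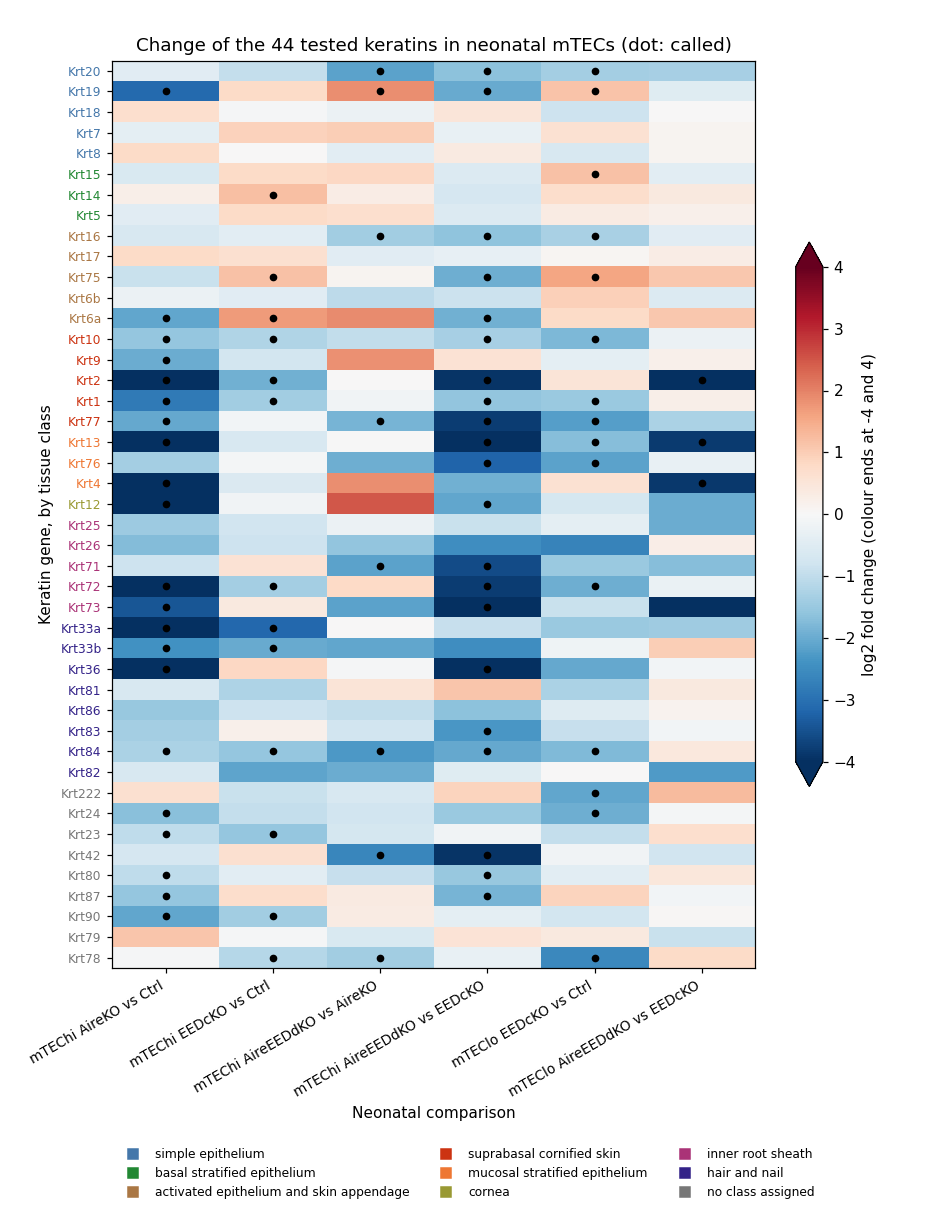
Log2 fold change of the 44 tested keratins (lines, by tissue class) in 6 neonatal comparisons (columns), blue for lower and red for higher, with a black dot where a gene was called. The AireKO column has 21 dots, all lower. The EEDcKO columns have 13 dots in mTEChi (3 higher, 10 lower) and 15 in mTEClo (3 higher, 12 lower).

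In neonatal mTEClo the loss of Eed gave 15 called keratins, 3 higher (6.82% of those tested) and 12 lower (27.3%). Over all genes 15.7% were called, 9.51% higher and 6.22% lower. Krt10 was at 36.1, 34.4 and 11.3 CPM in Ctrl and at 8.76, 7.55, 5.76 and 9.84 in EEDcKO (-1.81 ± 0.35, adjusted p by edgeR = 0.000444). Krt1 was at 17.2, 21.04 and 10.1 CPM in Ctrl and at 4.38, 5.75, 6.82 and 6.06 in EEDcKO (-1.49 ± 0.40). The pair was lower in all EEDcKO libraries. Krt77 (-2.19 ± 0.49), another epidermal keratin, Krt78 (-2.58 ± 0.46) and the mucosal keratins Krt76 and Krt13 were among the others that fell. The genes that rose were Krt15, Krt19 and Krt75. Krt19 was at 40.5, 40.3 and 51.8 CPM in Ctrl and at 96.0, 134, 76.6 and 83.0 in EEDcKO, with no overlap, a log2 fold change of 1.14 ± 0.33. Without Ctrl replicate 1 the count was 9, all lower, and in these groups alone it was 9 (2 higher, 7 lower), or 7 (2 higher, 5 lower) with the replicate block. Whether the effect of Eed loss differed between mTEChi and mTEClo was not tested.

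Other epithelial genes were counted from lists in both EEDcKO fractions, to be read against the shares of all genes called there (13.9% in mTEChi and 15.7% in mTEClo). Of 22 tested keratinocyte transcription factors, 5 rose in mTEChi and 8 in mTEClo, led by Foxe1 (2.67 ± 0.52 and 3.60 ± 0.68), Barx2 and Gata3 (1.76 ± 0.25 and 2.90 ± 0.30). Of 20 cornified envelope genes, 9 fell in mTEChi and 8 in mTEClo, with Rptn at -2.87 ± 0.52 and -3.92 ± 0.58. Of 16 desmosome genes, 2 rose and 2 fell in mTEChi, and 1 rose and 4 fell in mTEClo, with the suprabasal desmocollin Dsc1 at -2.94 ± 0.57 and -4.66 ± 0.85. Of 12 hemidesmosome and plakin genes, 2 and 4 rose, among them Itgb4 in mTEChi and Col17a1 in mTEClo (1.07 ± 0.10 and 1.89 ± 0.17). Of 17 other intermediate filament genes, 3 rose in mTEChi, and 2 rose and 2 fell in mTEClo, with the muscle filament Des at 2.35 ± 0.31 and 1.78 ± 0.35.

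Markers of other cells moved with these groups. The summed level of 5 mesenchymal markers was 232.6 to 307.2 CPM in Ctrl mTEChi and 482.9 to 765.5 in EEDcKO mTEChi (3 of 5 called higher), and 117.5 to 124.3 and 448.2 to 635.2 in mTEClo (4 of 5 called higher). In mTEChi the summed level of 4 cTEC markers was 358.7 to 725.7 CPM in Ctrl and 194.5 to 259.5 in EEDcKO (1 of 4 called lower). Of the myeloid, thymocyte and endothelial markers, 2 of 4, 1 of 6 and 1 of 3 were called lower in EEDcKO mTEChi. In mTEClo 1 of 3 endothelial markers was called lower. The cTEC sum was 1400 to 2222 CPM in Ctrl mTEClo and 183.5 to 631.6 in EEDcKO mTEClo (4 of 4 called lower), although the sort took Ly51-negative cells. Ages differed here, with Ctrl mTEClo at 1 to 3 days. In EEDcKO mTEClo the cTEC sum was 486.2 and 631.6 CPM at 1 to 3 days, 183.5 at 4 days and 210.9 at 6 days. None of the mesenchymal or cTEC markers was at 0 in either mTEClo group. The part of all these markers in the keratin results was not tested.

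In AireEEDdKO mTEChi 8 keratins differed from AireKO, 1 higher and 7 lower, where 9.47% of all genes were called, 6.69% higher and 2.78% lower. Krt19 rose, from 7.54, 9.64 and 4.52 CPM in AireKO to 23.6, 28.9 and 20.9 in AireEEDdKO (1.86 ± 0.49, adjusted p by edgeR = 0.0101), with no overlap. Krt20 fell, from 52.8, 52.3 and 24.0 CPM to 11.2, 8.67 and 8.98 (-2.13 ± 0.53), also with no overlap. Krt42, Krt84, Krt71, Krt77, Krt78 and Krt16 fell by 2.61 to 1.39 on the log2 scale. Libraries with the same replicate number deviated together, but they also shared age, sex label and depth class. A pairing thus cannot be told apart from these. With the replicate as a block 4 keratins were higher and 7 lower, while without the block these groups alone gave 4 higher and 5 lower. DESeq2 called 3 higher and 6 lower. Leaving out any 1 of the 6 libraries left 2 to 6 calls, the fewest without AireKO replicate 3. Krt13 was at 0, 0 and 0.321 CPM in AireEEDdKO. The summed mesenchymal markers were at 217.5 to 304.4 CPM in AireKO and 362.5 to 641.7 in AireEEDdKO (2 of 5 called higher). The cTEC markers were at 457.7 to 671.4 and 231.6 to 421.7 (0 of 4 called by edgeR, 1 lower at an unadjusted p under 0.05). No thymocyte, endothelial or myeloid marker was called. The part of these markers was not tested. Of 20 cornified envelope genes 7 fell.

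Against EEDcKO, AireEEDdKO mTEChi had 21 keratins lower and 0 higher (edgeR and DESeq2; 2 were higher at an unadjusted p under 0.05), where 13.3% of all genes were called, 4.99% higher and 8.36% lower. This comparison and that of EEDcKO with Ctrl share the EEDcKO libraries. Krt13 had 1 count in AireEEDdKO, a ratio of 111 to EEDcKO (19.9 to 4390). Krt77 was at 172.8, 131.9 and 233.4 CPM in EEDcKO and at 34.1, 4.04 and 3.85 in AireEEDdKO (-3.81 ± 0.60, adjusted p by edgeR = 0.000139). Its groups were far apart, and Krt19, Krt1 and Krt10 fell as well (-2.01 ± 0.37, -1.58 ± 0.47 and -1.34 ± 0.42). Of the markers of other cells, 1 of 4 cTEC genes was called higher and 1 of 3 endothelial genes lower. Of 6 thymocyte and of 5 mesenchymal genes 1 each was called higher and 1 lower, and of 4 myeloid genes 0. Their part was not tested. In mTEClo, 3 keratins were lower in AireEEDdKO than in EEDcKO (Krt2, Krt4 and Krt13) and 0 higher by edgeR (3 at an unadjusted p under 0.05, and 1 by DESeq2), where 5.3% of all genes were called, 3.45% higher and 1.85% lower. Fitted on these groups alone, the count was 0, and DESeq2 on all groups gave 5.

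An interaction term asked whether the 2 losses add up in neonatal mTEChi. It was called for 0 of 44 keratins by edgeR's quasi-likelihood test, compared with 1.25% of all genes (0.807% positive and 0.446% negative), and 8 had an unadjusted p under 0.05. DESeq2 called 2. For Krt17 the interaction was -1.09 ± 0.32 (adjusted p by edgeR = 0.0779) and for Krt71 -2.74 ± 0.80 (adjusted p by edgeR = 0.0817).

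In neonates too the fractions were compared within a genotype. In Ctrl 22 keratins were higher in mTEChi than in mTEClo and 0 lower (20.7% of all genes called, 13.8% higher and 6.92% lower), and in EEDcKO also 22 higher and 0 lower (21.8% called, 14.2% higher and 7.67% lower). At an unadjusted p under 0.05, 3 were lower in Ctrl and 1 in EEDcKO, and DESeq2 called 0 lower in either. The summed cTEC markers were at 358.7 to 725.7 CPM in Ctrl mTEChi and 1400 to 2222 in Ctrl mTEClo (3 of 4 called lower), and of the thymocyte, mesenchymal, endothelial and myeloid markers 3 of 6, 3 of 5, 1 of 3 and 2 of 4 were called higher in Ctrl mTEChi. In EEDcKO these counts were 2 of 6, 2 of 5, 2 of 3 and 1 of 4, with 1 mesenchymal marker lower. Their part was not tested. Krt73, Krt2, Krt72, Krt33a and Krt33b led in Ctrl, with log2 fold changes of 2.13 to 3.42. Krt5 was at 226 to 271 CPM in Ctrl mTEChi and 309 to 391 in mTEClo (-0.47 ± 0.16), and Krt14 at 117 to 143 and 127 to 182 (-0.31 ± 0.22), and neither was called. Krt18 was lower in Ctrl mTEChi by -0.73 ± 0.20, under 2-fold. Adult and neonatal tables were fitted apart, so the size of these differences was not compared by a test. The Ctrl count was 10 without mTEClo replicate 3, 13 without mTEChi replicate 5 and 5 with libraries over 2000000 counts alone.

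Along the clusters, the response to AireKO in adult mTEChi followed position only in part. On chromosome 15, 8 genes in a row from Krt71 to Krt4 (Krt71, Krt72, Krt73, Krt2, Krt1, Krt77, Krt76 and Krt4) were all called lower, and they lie between Krt5 on the one side and Krt79, Krt78, Krt8 and Krt18 on the other, of which none was called. Krt4 (chr15:101918535-101924735) and Krt18 (chr15:102028180-102032027) lie on the same cluster with Krt79, Krt78 and Krt8 between them, and their log2 fold changes were -5.93 and 0.45. The genes in a row from Krt86 to Krt75 on this chromosome were called lower too. On chromosome 11, all tested genes from Krt23 to Krt9 were called lower, among them Krt13 (chr11:100117327-100121566), Krt15 and Krt19. Krt14 (chr11:100203162-100207548), which follows Krt9, was not called. Of all tested keratins 71.1% were called lower, and the length of these runs was not tested. Counting was not by strand, and reads of low mapping quality were removed by the authors.

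**Figure D5:**
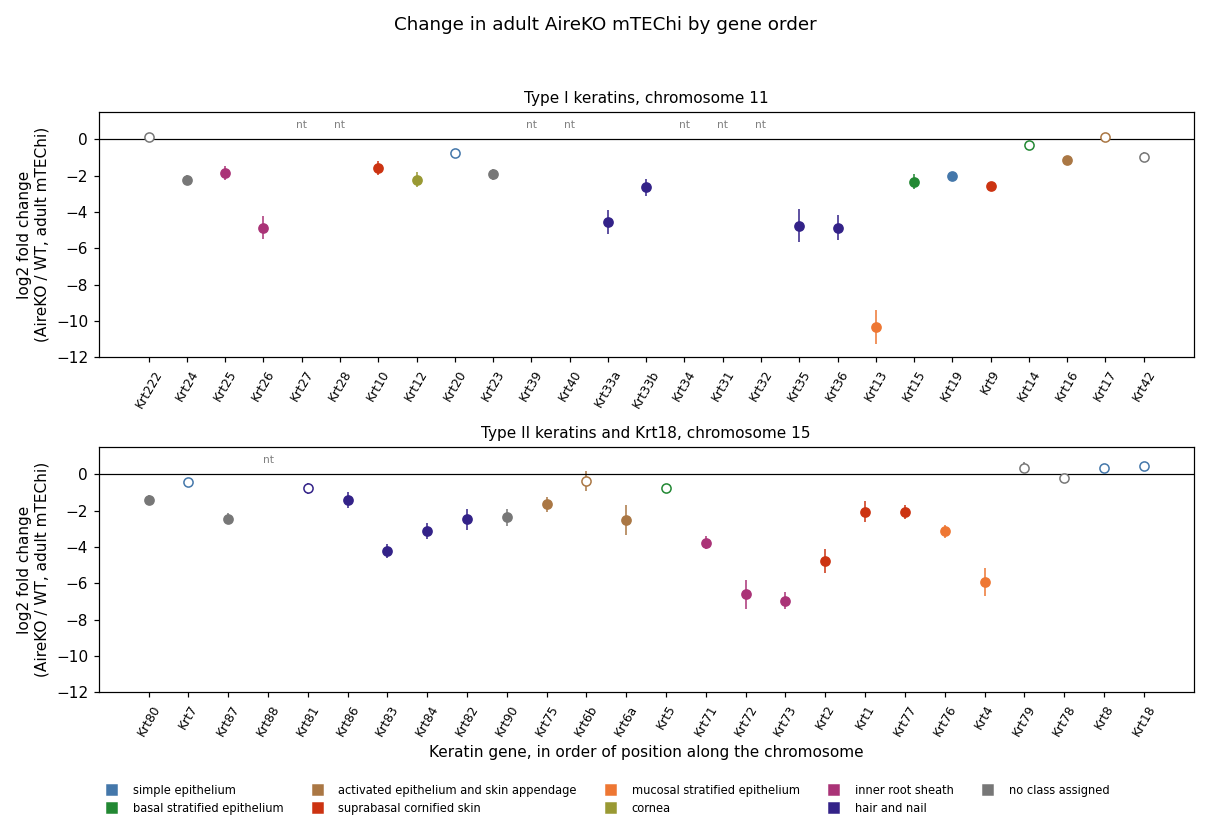
Log2 fold change (AireKO over WT in adult mTEChi, ± SE) of each keratin in its order along chromosome 11 (top) and chromosome 15 (bottom), coloured by tissue class, with filled points for called genes and nt for genes not tested. Krt71 to Krt4 form a run of filled points below 0, and Krt79, Krt78, Krt8 and Krt18 beside them are open and near 0. Krt86 to Krt75, and the tested genes from Krt23 to Krt9, form further runs.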

How the data were processed

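RNA was sequenced from 47 libraries of sorted mouse mTECs, 23 adult and 24 neonatal, each in its own table. The authors deposited raw counts for each Ensembl gene, with no scaling. According to the methods and the submitters' processing notes, reads were cleaned with fastp 0.20.0, mapped to mm10 with STAR 2.7.3a, filtered on mapping quality with SAMtools 1.9, freed of duplicates with Picard 2.21.1 and counted with htseq-count (HTSeq 0.11.2) without strand, from RamDA-seq libraries made from total RNA. Since there were no molecular identifiers, duplicate removal can lower the counts of abundant genes such as Krt17 and Krt18. Reads from near copies and from overlapping or antisense genes are uncertain. Symbols, types, positions and exonic lengths came from GENCODE M21 (GRCm38). The annotation release used for counting is not given in the sources used here.

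Groups came from the titles in the labels. Each table was filtered (filterByExpr), scaled with TMM (edgeR's trimmed mean normalization) and fitted over all its groups with edgeR 4.0.16 (quasi-likelihood) in R 4.3.3, with limma 3.58.1. There were 14 comparisons, tested 2-sided with Benjamini-Hochberg adjustment over all tested genes. Prior count was 0.125. CPM use TMM-scaled library sizes. A fold against a group at 0 counts uses 3 counts over the group, and for 1 to 3 counts the ratio has an exact Poisson interval, which covers counting error only. The code was tested on simulated counts. Alternatives were DESeq2 1.42.0, other scalings and filters, the replicate block, single libraries left out, and subsets by sex, age and mitochondrial counts. TMM on totals over all genes and the alternatives by depth class and by age and sex block were chosen after seeing the data. Samples with the same replicate number deviated together in AireKO mTEChi against mTEClo (correlations of 0.139 to 0.222 over 4 pairs) and in AireEEDdKO against AireKO mTEChi (0.108 to 0.213 over 3 pairs). In the former, not every library matched its own number best. No 2 libraries of a group agreed within sampling noise, but some came close. The chi-square per gene, near 1 for sampling noise alone, was 1.233 to 14.023 over 92 pairs. In adult AireKO mTEChi it was 1.343 for replicates 1 and 2, 1.282 for 3 and 4, and 3.998 to 6.388 for the other pairs. For replicates 1 and 2 it was 1.233 in adult WT mTEChi and 1.243 in neonatal Ctrl mTEChi. The tests took all libraries as separate, so p-values are too small if close libraries share an animal.

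Members, tissue classes and gene lists were chosen with earlier results of these data known. Called members were named by size of change, up to 10 in each direction, with values for those called in any comparison or at a mean of at least 10 CPM in any group, and genes of other lists by size of change, up to 3 for each list.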

Additional observations from a re-analysis of the deposited data

Results flagged for a closer look

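In 4 cases 1 library stood apart from the rest of its group by Dixon's test. Krt2 was at 41.4 CPM in adult WT mTEChi replicate 7 and at 8.71 to 18.0 in the other 6 libraries. Krt19 was at 183.2 CPM in adult WT mTEClo replicate 1 and at 97.0 to 127.8 in the others. In neonatal EEDcKO mTEClo, Krt75 was at 48.7 CPM in replicate 4 against 13.8 to 19.8, and Krt8 was at 173.9 CPM in replicate 2 against 124.7 to 133. Over the 132 tests made, 1 for each keratin and group of at least 4 libraries with a mean of at least 10 CPM, chance alone would give 6.6 such cases. The neonatal groups of 3 libraries were not tested.

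The response to AireKO differed between adult mTEChi and mTEClo for 14 keratins by the interaction term. The log2 difference was -9.54 for Krt13, -6.93 for Krt72, -6.74 for Krt33a, -6.47 for Krt26, -5.84 for Krt36, -4.97 for Krt33b and -4.71 for Krt4. It was -3.85 for Krt15, -3.48 for Krt9, -3.40 for Krt83, -3.25 for Krt24, -2.76 for Krt71, -2.62 for Krt87 and -2.08 for Krt19. Values for Krt13, Krt72, Krt33a, Krt26 and Krt36 rest on 0 to 2 counts in AireKO mTEChi and depend on the prior count.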

How the results depend on the processing

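Over the comparisons, 228 calls of a keratin were made, and none changed direction under any alternative run that tested the gene. Among runs that tested the gene, 150 were kept whichever library was left out, and 133 under every other alternative. A gene under the filter in a run was not counted as lost. The groups compared alone, with or without the replicate block, tested 201 of the 228 calls. RLE size factors, library size alone, TMM on totals over all genes, no minimum change and no filter on low counts lost none of the 228 calls, and DESeq2 lost 5. Age in days as a term was run for neonatal AireKO and EEDcKO against Ctrl and AireEEDdKO against AireKO. It lost 2 of 57 calls. Libraries over 2000000 counts alone lost 76 of 214, but they leave few libraries, with only 1 AireKO and 1 AireEEDdKO library of neonatal mTEChi, each assumed to vary like the other groups, so this says little of depth. Library size alone shifted the median of all genes by -0.161 in adult and -0.215 in neonatal AireKO mTEChi.

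Counts of called keratins that moved by over 1.5 times were these. AireKO against WT in adult mTEClo gave 3 with age as a term, 5 among males and 16 among libraries under 2000000 counts (1 higher, 15 lower), where deeper libraries gave 7 (4 higher, 3 lower). In both of these depth classes other traits differed with genotype, as given above. AireKO mTEChi against mTEClo gave 10 in the groups compared alone and 10 with the replicate block. Libraries over 2000000 counts alone gave 8 for neonatal AireKO, 1 for AireEEDdKO against AireKO, 4 for AireEEDdKO against EEDcKO in mTEChi and 1 in mTEClo, and 5 for the Ctrl fractions. The interaction of Aire and Eed gave 4 without a filter, 2 by DESeq2, 2 in the groups compared alone, 1 with the replicate block and 1 with depth class as a term. EEDcKO against Ctrl in mTEClo gave 9 in the groups compared alone and 7 with the replicate block. AireEEDdKO against EEDcKO in mTEClo gave 6 without a filter, 5 by DESeq2, and 0 in the groups compared alone with or without the replicate block. EEDcKO mTEChi against mTEClo gave 14 with the replicate block, whose numbers join libraries of different age there. Matched instead by the age and sex in the labels, which do not state shared animals, EEDcKO gave 20 and Ctrl 27 (chosen after seeing the data). The groups compared alone leave fewer genes past the filter, and other causes were not tested.

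With each library left out in turn, the counts ran from 31 to 35 in adult mTEChi, 7 to 10 in adult mTEClo, 28 to 29 and 17 to 20 between the fractions of WT and AireKO, and 13 to 18 for their interaction. In neonatal mTEChi they ran from 16 to 21 for AireKO, 7 to 17 for EEDcKO, 2 to 6 for AireEEDdKO against AireKO, 15 to 19 against EEDcKO and 0 to 0 for the interaction. In neonatal mTEClo they ran from 9 to 16 for EEDcKO and 1 to 4 for AireEEDdKO, and between fractions from 10 to 21 in Ctrl and 18 to 25 in EEDcKO. In the comparison of AireEEDdKO with AireKO, libraries of the same number deviated together but also shared age, sex label and depth class. There the block gave 11 calls (4 higher, 7 lower) against 8 (1 higher, 7 lower). In the AireKO fractions libraries of the same number deviated together, but not every library matched its own number best. Elsewhere replicate numbers were only numbers. At 3 counts the limit of a single library was 0.623 to 1.90 CPM.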
